A study of Caenorhabditis elegans with 6 samples.

Results

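The genes described here were the pre-mRNA splicing factors that carry the symbols snr-, prp-, rsp-, uaf-, sftb-, sfa- and rnp- in the platform annotation. The rule also asked for symbols starting hrp-, of which the annotation held 0; it names hnRNP genes hrpa-1, hrpr-1 and the like, which that prefix does not match and which are given with the regulators of alternative splicing. It found 42 of the 17118 genes with a probe set of their own, namely 7 snr, 12 prp, 8 rsp, 2 uaf, 3 sftb, 1 sfa and 9 rnp genes. Each gene is given by its brightest probe set, by the mean of the 6 arrays, among those that name no other gene. RNA was measured on Affymetrix C. elegans arrays in whole L1 larvae, the first stage after hatching, of the nematode Caenorhabditis elegans, hatched without food.

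The groups, with 2 arrays each, were elo-5(gk208) mutants whose mothers were given C13ISO (elo-5 C13ISO), elo-5(gk208) mutants whose mothers were given C17ISO (elo-5 C17ISO), and wild-type N2 larvae whose mothers were given C13ISO (N2 C13ISO). C13ISO and C17ISO are fatty acids with a methyl branch, C17ISO having the longer chain, and elo-5 encodes an elongase needed to make C17ISO. All 3 groups shared a preceding generation on OP50 bacteria with 1 mM C17ISO, then received 1 mM of their own supplement at 20 °C, and their larvae spent 24 h without food. The labels describe the elo-5 C13ISO larvae as C17ISO deficient, and all groups were whole animals of mixed tissues. An N2 group on C17ISO was not analysed here, and the mutation was studied as a single allele.

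The spliceosome removes introns from transcripts and is built from small nuclear RNAs and their proteins. The Sm proteins form the ring around most of these RNAs, SF1 and U2AF find the branch point and the end of the intron, and SF3a and SF3b hold the U2 particle there. The PRP proteins, named after yeast mutants, belong largely to the U4, U5 and U6 particles and to the catalytic steps, while SR proteins bind exons and influence which sites are used. In C. elegans, loss of many of these proteins arrests the embryo.

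Values are the authors' deposited intensities on a linear scale, and fold changes and log2 differences are of intensity + 16. A gene was called when limma's adjusted p was below 0.05, with p adjusted over all 15783 tested probe sets. The elo-5 probe set read 217 and 144 in elo-5 C13ISO, 146 and 178 in elo-5 C17ISO and 1169.7 and 1608 in N2 C13ISO, low on all 4 mutant arrays. No source used here places it relative to the deletion. Array medians were 107 to 134, and arrays of a group correlated at 0.984 to 0.989 (Spearman) over all probe sets. Of 26 tested oocyte and early embryo markers, 23 rose in elo-5 C13ISO against elo-5 C17ISO and 24 against N2 C13ISO, and 0 fell in either. The risen markers make 88.5% and 92.3%, beside 27.2% and 24.8% of all tested genes called higher. The summed intensity of the 27 measured was 15080 to 21891 in elo-5 C13ISO, 4927 to 5784 in elo-5 C17ISO and 5737 to 6565 in N2 C13ISO. None of the 27 was below 16 on both elo-5 C13ISO or both N2 C13ISO arrays, and 1, puf-11, was on both elo-5 C17ISO arrays. In whole animals, fewer cells of a type and less RNA per cell cannot be told apart. The part of such RNA in the splicing gene differences was not tested.

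Most splicing genes differed little between the groups. In elo-5 C13ISO against elo-5 C17ISO, 7 of 42 were higher, 1 was lower and 34 were not called. The 8 called make 19% of the splicing genes, beside 46.2% of the 12057 tested genes (27.2% higher and 18.9% lower). With array medians aligned that share was 40.5%, beside 49.4% of all genes. In elo-5 C13ISO against N2 C13ISO, 5 were higher and 6 lower, or 26.2% of the splicing genes beside 45.2% of all (24.8% higher and 20.4% lower). Between elo-5 C17ISO and N2 C13ISO 0 of 42 were called, with 2 at an unadjusted p below 0.05, beside 1.51% of all genes called (0.821% higher and 0.688% lower). Both comparisons with elo-5 C13ISO share its arrays, so their calls are not independent, and 28 genes were called in neither.

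The differences were small in size as well as few. None of the 42 differed by 2-fold or more in any comparison with the offset of 16, though the dim gene rnp-8 reached a log2 difference of 1.05 against elo-5 C17ISO with an offset of 1. With the offset of 16, 19.6% of all tested genes differed that much in elo-5 C13ISO against elo-5 C17ISO, 20.1% against N2 C13ISO and 0.863% in elo-5 C17ISO against N2 C13ISO. The median size of the log2 difference, without regard to sign, was 0.24, 0.26 and 0.13 for the splicing genes in that order of comparisons, and 0.42, 0.41 and 0.17 for all genes. The 95% interval of the difference lay wholly within 2-fold for 38, 39 and 42 of the 42 genes, that is 90.5%, 92.9% and 100% of them, beside 63%, 63.8% and 92.3% of all genes. Standard errors of the splicing genes ran from 0.11 to 0.22 with a median of 0.15, and the median over all genes was 0.18. Signed medians were 0.10, 0.07 and -0.09 on the log2 scale, beside 0.08, 0.04 and -0.04 for all genes. These medians are near enough to 0 for the scaling to set their sign, since aligning the array medians moved the splicing genes to -0.13, -0.09 and -0.02 and all genes to -0.15, -0.12 and 0.03.

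**Figure D1:**
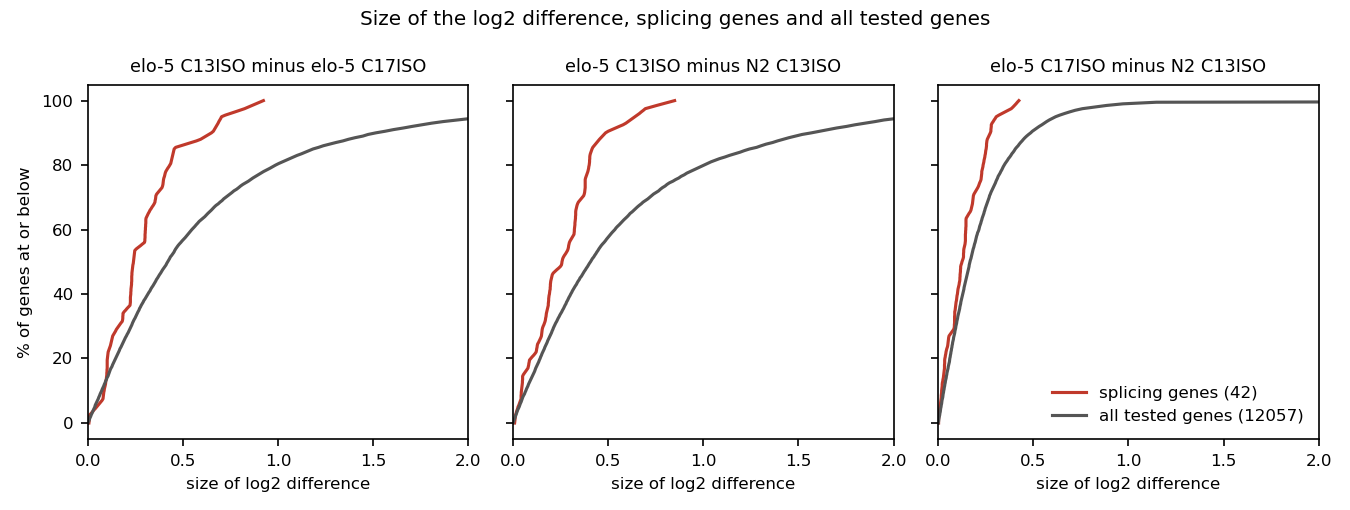
Size of the log2 difference on the horizontal axis and the percentage of genes at or below that size on the vertical axis, for the 42 splicing genes and the 12057 tested genes in each comparison; the horizontal axis ends at 2. The curve of the splicing genes ends below 1 in each panel, with medians of 0.24, 0.26 and 0.13 against 0.42, 0.41 and 0.17 for all genes.

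**Figure D2:**
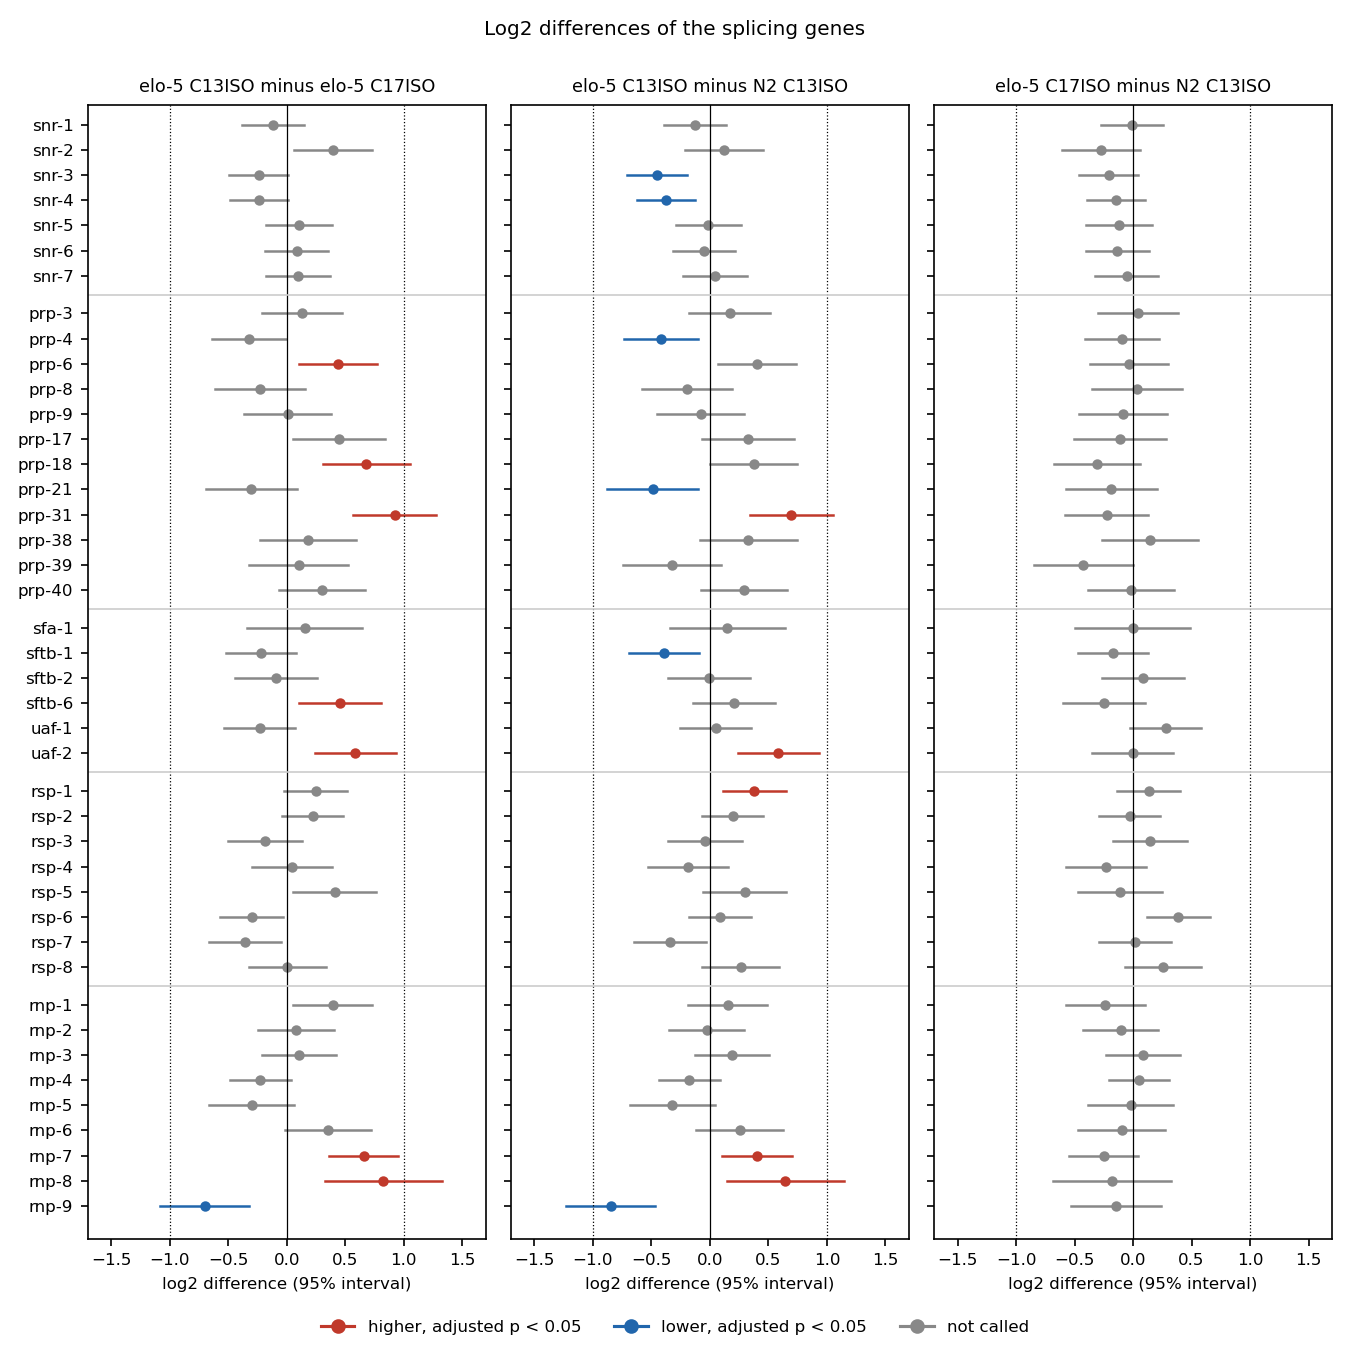
Log2 difference with its 95% interval for each of the 42 splicing genes in the 3 comparisons, grouped by family, with dotted lines at a 2-fold difference. Called genes are coloured; 7 are higher and 1 lower in the left panel, 5 higher and 6 lower in the middle panel, and 0 called in the right panel.

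The 7 snr genes encode the Sm ring, and 0 of them were called against elo-5 C17ISO. This count depended on the scaling, since with array medians aligned snr-1, snr-3 and snr-4 were called lower there (adjusted p = 0.0375, 0.0043 and 0.00887), while under quantile normalization 1 was called, snr-2, and was higher. Against N2 C13ISO, 2 fell and 5 were not called. The Sm gene snr-3 read 1833 and 1632 in elo-5 C13ISO, 2078 and 2018 in elo-5 C17ISO and 2520.3 and 2229.8 in N2 C13ISO. Its elo-5 C13ISO arrays were the lowest and its N2 C13ISO arrays the highest, with no overlap between any groups. It fell 1.37-fold against N2 C13ISO (log2 -0.45, SE 0.11, adjusted p = 0.00921), and the log2 difference from elo-5 C17ISO was -0.24 (adjusted p = 0.113).

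The Sm gene snr-4 read 1350.1 and 1321 in elo-5 C13ISO, 1599 and 1553 in elo-5 C17ISO and 1680.1 and 1805 in N2 C13ISO, in the same order and again without overlap. It fell 1.3-fold against N2 C13ISO (SE 0.11, adjusted p = 0.0193). Its only probe set is of the _x_at type, a type whose probes may also bind other transcripts. Without N2 C13ISO replicate 1 neither call held (adjusted p = 0.11 for snr-3 and 0.0696 for snr-4), and snr-4 was also not called without N2 C13ISO replicate 2 (adjusted p = 0.173).

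None of the other 5 Sm genes was called. The intensity of snr-1 was 1926 and 1671 in elo-5 C13ISO, 1826 and 2085 in elo-5 C17ISO and 1965 and 1961 in N2 C13ISO. That of snr-5 was 1688 and 2118 in elo-5 C13ISO, 1735 and 1777 in elo-5 C17ISO and 1909.8 and 1905 in N2 C13ISO. For snr-1, snr-5, snr-6 and snr-7 the elo-5 C13ISO arrays overlapped the elo-5 C17ISO arrays. The log2 differences from elo-5 C17ISO were -0.12 for snr-1 (interval -0.39 to 0.15), 0.11 for snr-5 (-0.18 to 0.39), 0.08 for snr-6 (-0.18 to 0.35) and 0.10 for snr-7 (-0.17 to 0.37). The gene snr-2 read 2115 and 2822 in elo-5 C13ISO, 1687 and 2031 in elo-5 C17ISO and 2159 and 2335 in N2 C13ISO, and just missed the threshold against elo-5 C17ISO (log2 0.40, adjusted p = 0.0533). It was called without elo-5 C13ISO replicate 1 (adjusted p = 0.00782), without elo-5 C17ISO replicate 2 (0.0458), under quantile normalization (0.032) and with a replicate block (0.017). Its other probe set differed by -0.10 (interval -0.42 to 0.23).

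Among the 12 prp genes, 3 rose and 0 fell against elo-5 C17ISO, and 1 rose and 2 fell against N2 C13ISO. With array medians aligned the counts were 2 higher and 3 lower, and 1 higher and 3 lower. With the offset of 16, the largest rise among the 42 genes in both comparisons was in prp-31. Against elo-5 C17ISO, the dim gene rnp-8 rose more with an offset of 1. The protein of prp-31 joins the U4 and U6 particle to U5. The gene prp-31 read 683 and 762 in elo-5 C13ISO, 374 and 372 in elo-5 C17ISO and 489.7 and 393 in N2 C13ISO. Both elo-5 C13ISO arrays stood above the other 4. The gene rose 1.89-fold against elo-5 C17ISO (log2 0.92, SE 0.16, limma's adjusted p = 0.00101) and 1.62-fold against N2 C13ISO (adjusted p = 0.0053). The first call held under all 16 alternatives run on it, while the second was lost without N2 C13ISO replicate 2 (adjusted p = 0.0774).

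The gene prp-18, which acts in the second catalytic step, read 281 and 341 in elo-5 C13ISO, 182 and 192 in elo-5 C17ISO and 244 and 227 in N2 C13ISO. It rose 1.6-fold against elo-5 C17ISO (SE 0.17, adjusted p = 0.00741), a call that held under all 16 alternatives with adjusted p of at most 0.0491. Its log2 difference from N2 C13ISO was 0.37 (interval 0.00 to 0.74, adjusted p = 0.0949). The other second-step gene, prp-17, read 574 and 789 in elo-5 C13ISO, 523 and 460 in elo-5 C17ISO and 557 and 509 in N2 C13ISO. It was not called against elo-5 C17ISO (log2 0.45, adjusted p = 0.0641).

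The gene prp-6, whose protein bridges U5 and the U4 and U6 particle, read 942 and 1115 in elo-5 C13ISO, 819 and 694 in elo-5 C17ISO and 806 and 739.9 in N2 C13ISO. It rose 1.35-fold against elo-5 C17ISO (adjusted p = 0.0372). The log2 difference from N2 C13ISO was 0.40 (adjusted p = 0.0519). The call against elo-5 C17ISO did not hold without elo-5 C13ISO replicate 2 (adjusted p = 0.152), elo-5 C17ISO replicate 2 (0.201) or either N2 C13ISO array (0.0658 and 0.0652), as well as with array medians aligned (0.288), without an intensity trend (0.0561) and in a fit of those 4 arrays alone (0.0652).

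A pair of prp genes fell against N2 C13ISO. The U4 and U6 particle gene prp-4 read 532 and 536 in elo-5 C13ISO, 712 and 635 in elo-5 C17ISO and 686 and 751 in N2 C13ISO, and fell 1.33-fold (SE 0.14, adjusted p = 0.036). The SF3a gene prp-21 read 407 and 418 in elo-5 C13ISO, 439 and 599 in elo-5 C17ISO and 551 and 622 in N2 C13ISO, and fell 1.4-fold (SE 0.17, adjusted p = 0.0439). In both genes the elo-5 C13ISO arrays were the lowest of the 6 and lay close together. Leaving out any array of the groups compared ended both calls, and that of prp-21 also ended with no filter (adjusted p = 0.0606) and without an intensity trend (0.0563). Without elo-5 C13ISO replicate 1, elo-5 C13ISO replicate 2, N2 C13ISO replicate 1 or N2 C13ISO replicate 2 the adjusted p for prp-4 was 0.0633, 0.0657, 0.0972 or 0.236. For prp-21 it was 0.0965, 0.0853, 0.0912 or 0.246.

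Of the remaining prp genes none was called in any comparison. The gene prp-8, whose protein lies at the catalytic core, read 1507 and 1372 in elo-5 C13ISO, 2061 and 1384 in elo-5 C17ISO and 1721 and 1584 in N2 C13ISO. Its elo-5 C17ISO arrays lay far apart, and the log2 difference of elo-5 C13ISO from them was -0.23 (interval -0.61 to 0.15). The SF3a gene prp-9, which acts with prp-21, had log2 differences of 0.01 against elo-5 C17ISO (interval -0.36 to 0.38) and -0.08 against N2 C13ISO (-0.45 to 0.29). The U4 and U6 gene prp-3 differed by 0.13 and 0.17 and the gene prp-38 by 0.18 and 0.33. The genes related to yeast U1 proteins, prp-39 and prp-40, differed by 0.10 and 0.30 against elo-5 C17ISO and by -0.32 and 0.29 against N2 C13ISO.

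**Figure D3:**
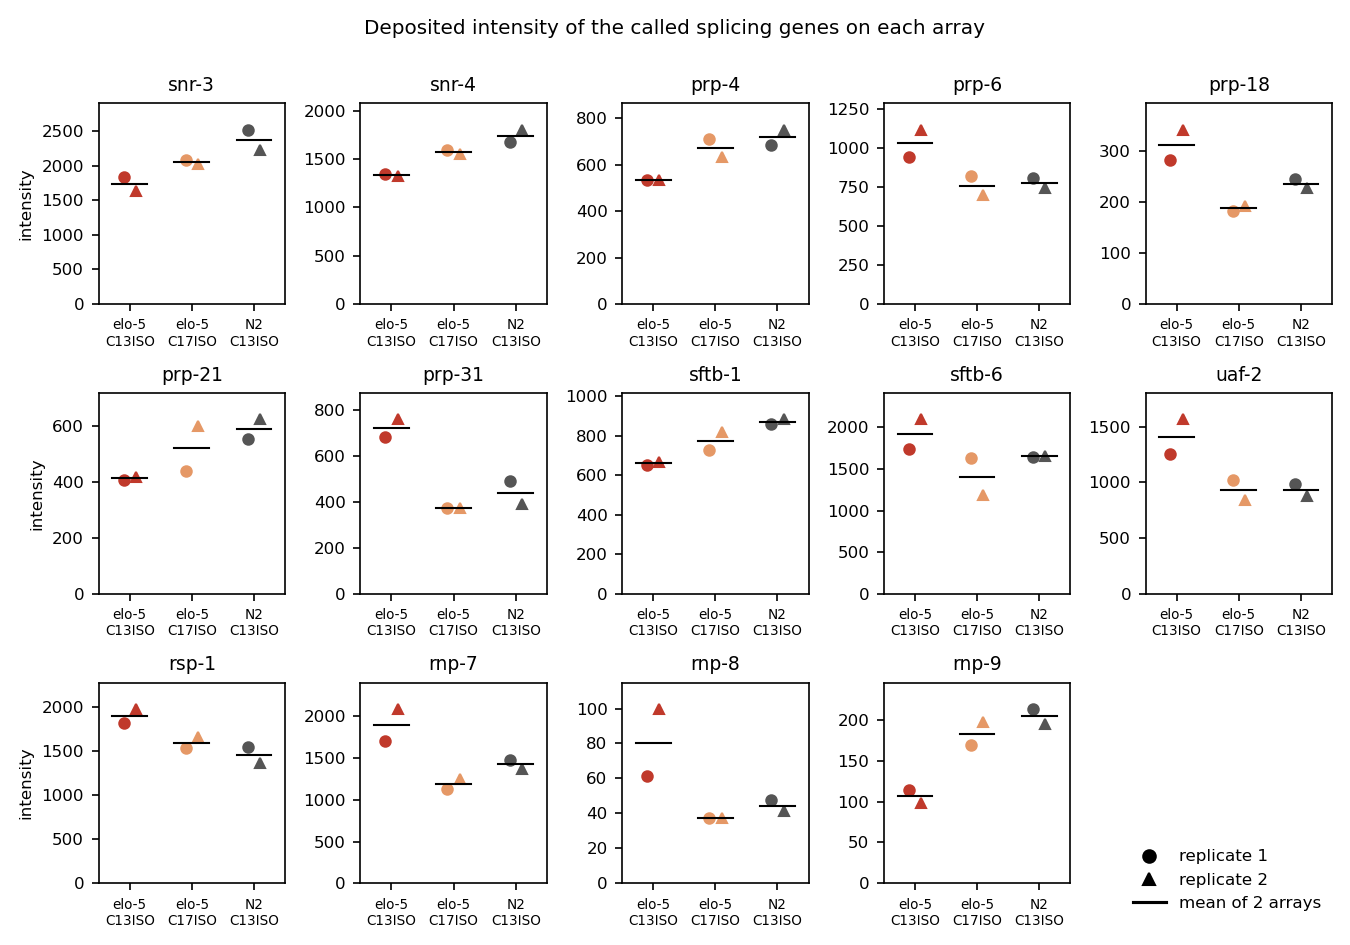
Deposited intensity on each array for the 14 splicing genes called in at least 1 comparison, on linear axes that start at 0; circles are replicate 1, triangles replicate 2 and lines the mean of 2 arrays. In prp-6, prp-18, prp-31, rnp-7, rnp-8, rsp-1, sftb-6 and uaf-2 both elo-5 C13ISO arrays lie above the other 4, and in rnp-9, snr-3, snr-4, prp-4, prp-21 and sftb-1 both lie below them.

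Branch point and 3′ splice site recognition involves 6 of the genes, of which 2 rose and 0 fell against elo-5 C17ISO, and 1 rose and 1 fell against N2 C13ISO. With array medians aligned 0 rose and 2 fell against elo-5 C17ISO, and the count against N2 C13ISO was as before. The gene uaf-2 encodes the small subunit of U2AF, which reads the last bases of the intron. It read 1254 and 1565 in elo-5 C13ISO, 1018 and 845 in elo-5 C17ISO and 982 and 878 in N2 C13ISO. It rose 1.5-fold against elo-5 C17ISO (log2 0.59, SE 0.16, limma's adjusted p = 0.0114) and 1.5-fold against N2 C13ISO (adjusted p = 0.0117). Neither call held without elo-5 C13ISO replicate 2, the higher of its arrays (adjusted p = 0.0649 and 0.0696). The first was also lost without elo-5 C17ISO replicate 2 (0.0856) and with array medians aligned (0.0826), and the second without N2 C13ISO replicate 2 (0.101).

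The large U2AF subunit gene, uaf-1, has a pair of probe sets that gave different answers. The brighter one read 1218 and 1147 in elo-5 C13ISO, 1552 and 1244 in elo-5 C17ISO and 1145 and 1139.7 in N2 C13ISO, with log2 differences of -0.23 (interval -0.53 to 0.07) against elo-5 C17ISO and 0.05 (-0.26 to 0.35) against N2 C13ISO. The other read 1186 and 1129 in elo-5 C13ISO, 780.2 and 834 in elo-5 C17ISO and 837 and 763 in N2 C13ISO, so that both elo-5 C13ISO arrays stood above the other 4. It was called higher in both comparisons, 1.43-fold (adjusted p = 0.00922) and 1.44-fold (adjusted p = 0.00822). With array medians aligned the brighter one was called lower against elo-5 C17ISO (adjusted p = 0.0159). No source used here says which transcripts of uaf-1 each probe set binds.

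The gene sfa-1 encodes the branch point binding protein SF1. Its probe set was dim, at 40.7 and 58.7 in elo-5 C13ISO, 50.8 and 35.4 in elo-5 C17ISO and 41.7 and 43.8 in N2 C13ISO, and the groups overlapped. The log2 difference was 0.15 against elo-5 C17ISO (interval -0.34 to 0.64) and 0.15 against N2 C13ISO (-0.34 to 0.64). Among the SF3b genes, sftb-1, whose protein is the large scaffold subunit, read 653 and 666 in elo-5 C13ISO, 729 and 818 in elo-5 C17ISO and 859.7 and 883 in N2 C13ISO. The groups did not overlap, with elo-5 C13ISO lowest and N2 C13ISO highest, and it fell 1.31-fold against N2 C13ISO (SE 0.13, adjusted p = 0.037). That call did not hold under quantile normalization (adjusted p = 0.067) or without elo-5 C13ISO replicate 1 (0.068), elo-5 C13ISO replicate 2 (0.0611), N2 C13ISO replicate 1 (0.139) or N2 C13ISO replicate 2 (0.194). With array medians aligned sftb-1 was also called lower against elo-5 C17ISO (adjusted p = 0.0258).

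The small SF3b gene sftb-6 read 1742 and 2098 in elo-5 C13ISO, 1626 and 1191 in elo-5 C17ISO and 1648 and 1659 in N2 C13ISO. It rose 1.37-fold against elo-5 C17ISO (adjusted p = 0.0392), with the elo-5 C17ISO arrays far apart. Without elo-5 C17ISO replicate 2 the adjusted p was 0.274 and without elo-5 C13ISO replicate 2 0.187. Leaving out N2 C13ISO replicate 1 or replicate 2 also ended the call (0.0622 for each), as did no filter (0.0599), aligned array medians (0.264), no intensity trend (0.0822) and a fit of those 4 arrays alone (0.0638). The gene sftb-2 differed by -0.09 against elo-5 C17ISO (interval -0.44 to 0.26) and by -0.01 against N2 C13ISO (-0.36 to 0.34). Its dimmer probe set differed by 0.36 (0.02 to 0.69) and -0.32 (-0.65 to 0.01) and was called in neither comparison.

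Of the 8 SR protein genes 0 were called against elo-5 C17ISO and 1 against N2 C13ISO. Against elo-5 C17ISO 3 were higher under quantile normalization and 3 were lower with array medians aligned. The called gene, rsp-1, read 1812 and 1975 in elo-5 C13ISO, 1532 and 1654 in elo-5 C17ISO and 1543 and 1364 in N2 C13ISO. It rose 1.3-fold against N2 C13ISO (SE 0.12, adjusted p = 0.0266). A second _x_at probe set of rsp-1 rose 1.37-fold (adjusted p = 0.0142), while the _at probe set of the same gene differed by -0.01 (interval -0.31 to 0.29). The call did not hold without elo-5 C13ISO replicate 2 (adjusted p = 0.0971), N2 C13ISO replicate 1 (0.0543) or N2 C13ISO replicate 2 (0.228), with array medians aligned (0.175) or without an intensity trend (0.064).

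The gene rsp-3 encodes the worm counterpart of SF2/ASF, the founding SR protein. It read 1054 and 979.6 in elo-5 C13ISO, 1280.2 and 1045 in elo-5 C17ISO and 989.9 and 1105 in N2 C13ISO, with all groups overlapping. Its log2 differences were -0.18 against elo-5 C17ISO (interval -0.50 to 0.13) and -0.04 against N2 C13ISO (-0.36 to 0.28). The gene rsp-4, the counterpart of SC35, differed by 0.04 (-0.30 to 0.38) and -0.18 (-0.53 to 0.16). Its dimmer probe set differed by 0.65 (0.08 to 1.22) and 0.46 (-0.12 to 1.03) and was not called. That probe set read 749 and 862 in elo-5 C13ISO, 712 and 359 in elo-5 C17ISO and 592 and 571 in N2 C13ISO.

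The gene rsp-6, the counterpart of SRp20, had its highest intensities in the C17ISO group, at 1498 and 1695 in elo-5 C13ISO, 1973 and 1958 in elo-5 C17ISO and 1600.2 and 1406 in N2 C13ISO. It did not pass the threshold against elo-5 C17ISO (log2 -0.30, adjusted p = 0.0671) or between elo-5 C17ISO and N2 C13ISO (0.39, adjusted p = 0.16). The gene rsp-7 was lowest in elo-5 C13ISO, at 794 and 662, against 936 and 932 in elo-5 C17ISO and 938 and 906 in N2 C13ISO, and was not called either (adjusted p = 0.0594 and 0.0725). The genes rsp-2, rsp-5 and rsp-8 had log2 differences of 0.22, 0.41 and 0.01 against elo-5 C17ISO and of 0.19, 0.30 and 0.26 against N2 C13ISO.

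The 9 rnp genes share an RNA recognition motif and are of mixed roles. Of these, 2 rose and 1 fell in elo-5 C13ISO against each of the other groups, namely rnp-7 and rnp-8 upwards and rnp-9 downwards. With array medians aligned 1 rose and 3 fell against elo-5 C17ISO, and 0 rose and 3 fell against N2 C13ISO. The gene rnp-7 encodes U1-70K, a protein of the U1 particle, which recognises the start of the intron. It read 1703 and 2085 in elo-5 C13ISO, 1131 and 1252 in elo-5 C17ISO and 1472 and 1371 in N2 C13ISO. It rose 1.58-fold against elo-5 C17ISO (log2 0.66, SE 0.13, limma's adjusted p = 0.00272) and 1.32-fold against N2 C13ISO (adjusted p = 0.0328).

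Its dimmer probe set rose 1.76-fold (adjusted p = 0.00442) and 1.78-fold (adjusted p = 0.00403), so rnp-7 was called by both of its probe sets in both comparisons. The call of the brighter one against elo-5 C17ISO held under all 16 alternatives. Against N2 C13ISO it was lost without elo-5 C13ISO replicate 2 (adjusted p = 0.168) and without N2 C13ISO replicate 1 (0.0909) or replicate 2 (0.195), with array medians aligned (0.191) and without an intensity trend (0.0694).

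The gene rnp-8 entered by its symbol. Its protein is known in C. elegans as a partner of the poly(A) polymerase GLD-2 in oogenesis rather than as a splicing factor. It was dim and read 61.1 and 99.8 in elo-5 C13ISO, 37.5 and 37.1 in elo-5 C17ISO and 47.8 and 41.2 in N2 C13ISO. It rose 1.77-fold against elo-5 C17ISO (SE 0.22, limma's adjusted p = 0.0131) and 1.56-fold against N2 C13ISO (adjusted p = 0.0406), with the elo-5 C13ISO arrays far apart. Without elo-5 C13ISO replicate 2 the adjusted p was 0.0856 and 0.249. The first call was also lost without elo-5 C17ISO replicate 1 (0.0563) or replicate 2 (0.0609) and with array medians aligned (0.0516). The second was also lost without elo-5 C17ISO replicate 1 (0.0591) or replicate 2 (0.0593) and without N2 C13ISO replicate 1 (0.0922) or replicate 2 (0.194), and with no filter (0.064), quantile normalization (0.122), aligned array medians (0.106) or a fit of those 4 arrays alone (0.0577). Of 24 tested germ line markers, 21 rose against elo-5 C17ISO and 18 against N2 C13ISO, and 0 fell, on the same arrays. The risen markers make 87.5% and 75%, beside 27.2% and 24.8% of all genes called higher. The summed intensity of the 25 measured was 4986 to 6300 in elo-5 C13ISO, 1904 to 2287 in elo-5 C17ISO and 2350.0 to 2702 in N2 C13ISO, with fbf-2 alone below 16 on both arrays of a group, elo-5 C17ISO. The part of germ line RNA in the rnp-8 difference was not tested.

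The gene rnp-9 gave the largest fall of the 42 in either comparison. It read 114 and 98.6 in elo-5 C13ISO, 169 and 197 in elo-5 C17ISO and 213 and 195 in N2 C13ISO, with both elo-5 C13ISO arrays below the other 4. It fell 1.63-fold against elo-5 C17ISO (log2 -0.70, SE 0.17, adjusted p = 0.00765) and 1.8-fold against N2 C13ISO (log2 -0.85, adjusted p = 0.00264). The second call held under all 16 alternatives, and the first was lost only without elo-5 C17ISO replicate 2 (adjusted p = 0.0693).

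The exon junction gene rnp-4, the counterpart of Y14, read 2002 and 2431 in elo-5 C13ISO, 2596 and 2571 in elo-5 C17ISO and 2589 and 2400.3 in N2 C13ISO and was not called (log2 -0.23, adjusted p = 0.141, against elo-5 C17ISO). Its dimmer probe set was called lower in both comparisons, 1.42-fold (adjusted p = 0.0117) and 1.32-fold (adjusted p = 0.0334). The genes rnp-2 and rnp-3, which encode proteins of the U1 and U2 particles, are neighbours in the WBcel235 gene table. The first differed by 0.08 against elo-5 C17ISO (interval -0.24 to 0.40) and the second by 0.10 (-0.21 to 0.42). Against N2 C13ISO the log2 differences were -0.03 and 0.19, and neither gene was called. The exon junction gene rnp-5, the gene rnp-6 and the gene rnp-1 differed by -0.30, 0.35 and 0.39 against elo-5 C17ISO and were not called (adjusted p = 0.163, 0.112 and 0.059).

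The arrays of elo-5 C13ISO stood apart from each other in these genes. In replicate 2 of this group 33 of the 42 splicing genes were brighter than in replicate 1, with a median log2 gap of 0.22, whereas 49.9% of all tested genes were (median 0.00). In elo-5 C17ISO 17 of 42 were brighter in replicate 2 (median -0.01), and in N2 C13ISO 13 of 42 (median -0.08), beside 40.4% and 37.2% of all genes in those groups. By family, replicate 2 of elo-5 C13ISO was brighter in 10 of 12 prp genes, 8 of 9 rnp genes, 6 of 8 rsp genes, 5 of 6 uaf, sfa and sftb genes and 4 of 7 snr genes.

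Set against the mean of the elo-5 C17ISO arrays, 18 of 42 genes were higher in elo-5 C13ISO replicate 1 (median log2 -0.05) and 27 in replicate 2 (0.22), beside 56.2% and 55% of all genes. Against the mean of the N2 C13ISO arrays the numbers were 20 (-0.01) and 28 (0.18), beside 54% and 51.9% of all genes. The oocyte and early embryo markers summed to 15080 in elo-5 C13ISO replicate 1 and 21891 in replicate 2, and the germ line markers to 4986 and 6300.

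The calls and the size of the differences depended on the arrays used. With 1 array left out, the lone array of its group was assumed to vary like the other groups, so a lost call shows fewer arrays as well as any change in the difference. All 19 called differences kept their sign in each such fit. This was fixed in advance, because the 2 groups compared were fully separated in every call. Only the size could vary, and it was 51.1% to 149% of the log2 size with all arrays. Leaving out an array of the group not compared does not alter the log2 difference. Without elo-5 C13ISO replicate 1 the median log2 difference of the splicing genes was 0.222 against elo-5 C17ISO and 0.184 against N2 C13ISO. Over all genes it was 0.062 and 0.024. Without elo-5 C13ISO replicate 2 it was -0.049 and -0.014 for the splicing genes, beside 0.079 and 0.042 for all genes. Without elo-5 C17ISO replicate 2 the medians against that group were 0.098 for the splicing genes and 0.06 for all genes. Against N2 C13ISO they were 0.06 and 0.068 without N2 C13ISO replicate 1, and 0.05 and 0.019 without replicate 2. Scaling also set the direction, since in elo-5 C13ISO against elo-5 C17ISO quantile normalization gave 12 higher and 1 lower, and aligned array medians 3 higher and 14 lower. Against N2 C13ISO these gave 5 and 5, and 2 and 10. Beside these, 47.5% and 49.4% of all genes were called against elo-5 C17ISO (53% and 38% of them higher). Against N2 C13ISO it was 46% and 47.7% of all genes (52.8% and 40.5% of them higher).

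**Figure D4:**
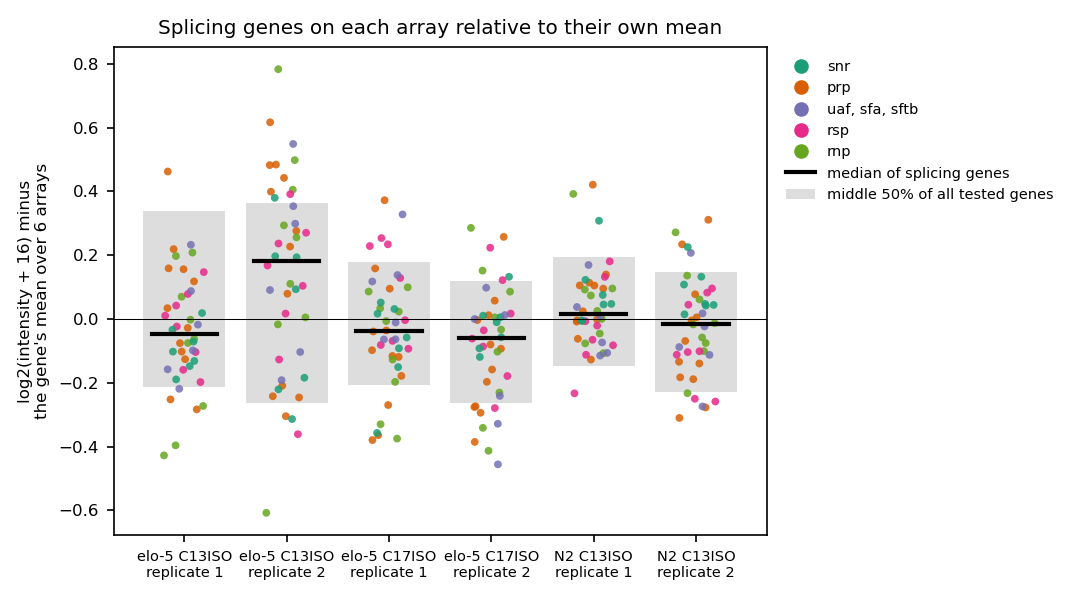
For each array, the log2(intensity + 16) of each of the 42 splicing genes minus that gene's own mean over the 6 arrays, coloured by family; the black line is the median of the splicing genes and the grey box holds the middle 50% of all tested genes. The median of the splicing genes is 0.18 on elo-5 C13ISO replicate 2 and lies between -0.06 and 0.02 on the other 5 arrays.

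Probe sets of one gene did not always move alike. Of the 42 genes, 13 had more than 1 probe set, which added 17 probe sets to the brightest ones, 15 of them tested. Against elo-5 C17ISO 3 of the 15 were called higher and 1 lower, beside 44.5% of all probe sets called, and 8 of the 15 had the sign of the brightest probe set of their gene. The median gap to the brightest was 0.32 on the log2 scale, and the widest was 1.03, in rsp-3. There the dimmer probe set read 199.6 and 137 in elo-5 C13ISO, 91.2 and 79.5 in elo-5 C17ISO and 147 and 108 in N2 C13ISO, and was called higher against elo-5 C17ISO (1.8-fold, adjusted p = 0.0105).

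Against N2 C13ISO 3 were called higher and 1 lower, beside 43.6% of all probe sets, and between elo-5 C17ISO and N2 C13ISO 0 were called, beside 1.41%. Calls by a dimmer probe set alone were made in rnp-4, rsp-3 and uaf-1 against elo-5 C17ISO and in rnp-4 and uaf-1 against N2 C13ISO. The gene rsp-5 also had probe sets of opposite sign, 0.41 and -0.36 against elo-5 C17ISO, neither of them called. In sftb-2 the dimmer probe set read 305 and 284 in elo-5 C17ISO and 479 and 481 in N2 C13ISO and was not called (log2 -0.68, adjusted p = 0.0623). With the mean of all probe sets of a gene, 9 splicing genes were higher and 4 lower against elo-5 C17ISO.

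**Figure D5:**
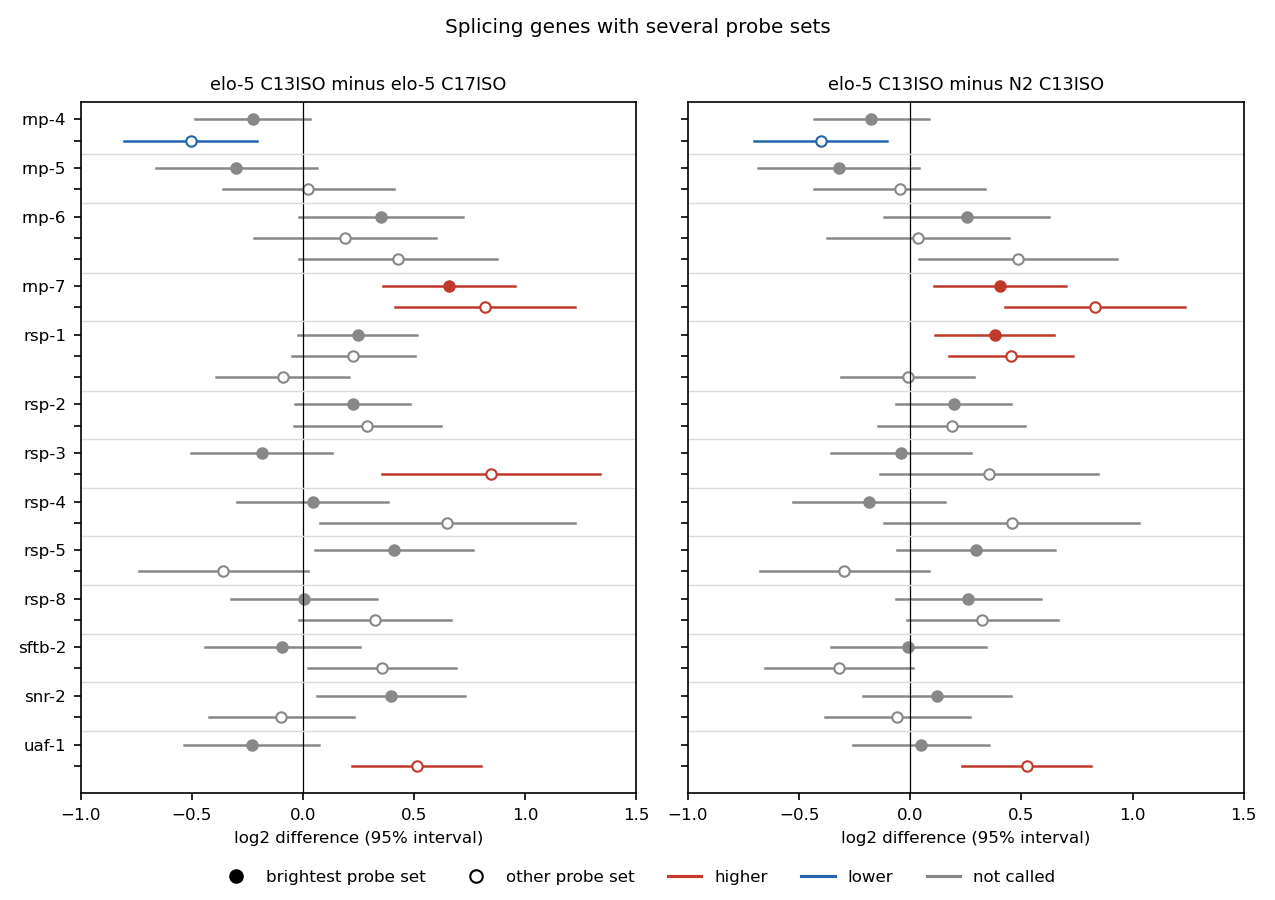
Log2 difference with its 95% interval for the 28 tested probe sets of the 13 splicing genes with more than 1 probe set; filled circles are the brightest probe set of a gene and open circles the others. Both probe sets of rnp-7 are called higher in both panels, while uaf-1 and rnp-4 are called by the dimmer probe set alone.

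Between elo-5 C17ISO and N2 C13ISO, which differ in both genotype and supplement, the 42 genes lay close. The widest log2 differences were -0.42 in prp-39 (interval -0.85 to -0.00, adjusted p = 0.316) and 0.39 in rsp-6 (0.12 to 0.65). Differences of the 7 snr genes ran from -0.28 in snr-2 to -0.01 in snr-1 (median -0.13, or -0.06 with array medians aligned), and 0 were called. The arrays were fully separated by group in 20 of the 42 genes, beside 50.9% of all genes. In the comparisons with elo-5 C13ISO the numbers were 26 of 42 against elo-5 C17ISO, beside 72.5% of all genes, and 27 of 42 against N2 C13ISO, beside 73.8%.

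Other parts of the splicing machinery were taken from lists chosen with earlier results of these data known. Of 40 measured subunits and helicases of the spliceosome outside the 42 genes, 13 rose and 2 fell against elo-5 C17ISO (median log2 0.23), and 12 rose and 2 fell against N2 C13ISO (0.23); the median over all genes was 0.08 and 0.04. The called make 37.5% and 35% of these genes, below the 46.2% and 45.2% of all genes. These counts became 7 and 4, and 6 and 4, with array medians aligned. The U5 gene snrp-40.2 read 107 and 154 in elo-5 C13ISO, 28.2 and 28.8 in elo-5 C17ISO and 39.5 and 35.4 in N2 C13ISO, and rose 3.24-fold against elo-5 C17ISO (adjusted p = 1.1e-04). The U4 RNA binding gene snu-13 rose 1.86-fold (adjusted p = 3.4e-04), the gene ess-2 1.99-fold (adjusted p = 0.00133) and the gene rbm-17 1.74-fold (adjusted p = 0.0083). The helicase gene mog-5, first known for the switch from sperm to oocytes, rose 1.74-fold against N2 C13ISO (adjusted p = 0.00231), and sut-2 rose 1.74-fold (adjusted p = 0.00655). No source used here places sut-2 in the spliceosome. Of the 11 measured LSm and snRNP assembly genes, 1 rose (sart-3, 1.47-fold) and 1 fell (lsm-4, 1.35-fold) against elo-5 C17ISO, with a median of 0.23. After aligning the array medians 0 rose and 2 fell. Against N2 C13ISO 1 rose, the gene smn-1 of the assembly protein SMN (1.55-fold, adjusted p = 0.00703), and 2 fell, lsm-3 and lsm-4 (median 0.02). The called were 18.2% and 27.3% of this list, again below all genes.

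Of 24 tested regulators of alternative splicing, 0 rose and 3 fell against elo-5 C17ISO (median log2 -0.12), and 0 rose and 6 fell against N2 C13ISO (-0.23). After alignment of array medians 0 rose and 12 and 11 fell, and under quantile normalization 0 rose and 5 and 6 fell. The lower genes were 12.5% and 25% of the list, beside 18.9% and 20.4% of all genes called lower. As deposited, their share was thus under or near that of all genes. With array medians aligned, 49.4% and 47.7% of all genes were called, 38% and 40.5% of these higher. There the share of the list called lower was above that of all genes. The genes smu-1 and smu-2 were named both here and among the subunits and helicases, so these lists are not fully separate. The gene sym-2 read 779 and 696 in elo-5 C13ISO, 1403 and 1389.7 in elo-5 C17ISO and 1369 and 1362 in N2 C13ISO. It fell 1.88-fold against elo-5 C17ISO (limma's adjusted p = 2.1e-04) and 1.84-fold against N2 C13ISO (adjusted p = 2.6e-04). The gene asd-2, which acts in muscle splicing, fell 1.88-fold and 1.66-fold (adjusted p = 7.1e-04 and 0.00264), and the hnRNP gene hrpf-1 fell 1.45-fold and 1.69-fold (adjusted p = 0.0122 and 0.00172). The gene mbl-1, the worm muscleblind gene, fell 1.77-fold against N2 C13ISO (adjusted p = 0.00777). The hnRNP gene hrpr-1 was the only gene of the pathway lists called between elo-5 C17ISO and N2 C13ISO, at 879 and 927 in elo-5 C17ISO against 1539 and 1314 in N2 C13ISO (log2 -0.65, adjusted p = 0.0463), and 0 of the list were called there under quantile normalization or with array medians aligned. The hnRNP gene hrpa-1 differed by -0.13 against elo-5 C17ISO (interval -0.33 to 0.07).

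Downstream of splicing, 3 of 18 tested genes of the exon junction, RNA export and nonsense-mediated decay rose and 0 fell against elo-5 C17ISO, and 3 rose and 1 fell against N2 C13ISO (medians 0.06 and -0.03). Those called were 16.7% and 22.2% of the list, beside 46.2% and 45.2% of all genes. Aligned array medians gave 2 higher and 3 lower, and 3 higher and 2 lower. The export gene nxf-2 rose 3.44-fold (adjusted p = 1.4e-04), at 159.6 and 216 in elo-5 C13ISO, 46.4 and 39.1 in elo-5 C17ISO and 67.3 and 43.2 in N2 C13ISO. The export adaptor gene aly-2 rose 1.67-fold and 1.67-fold (adjusted p = 0.00155 and 0.00152), and the decay kinase gene smg-1 1.31-fold and 1.5-fold (0.0377 and 0.00496). The exon junction gene acin-1 fell 1.39-fold against N2 C13ISO (adjusted p = 0.04). Of 27 measured genes of 3′ end processing and RNA polymerase II, 6 rose and 2 fell against elo-5 C17ISO (median -0.03), and 3 rose and 2 fell against N2 C13ISO (-0.04). Those called were 29.6% and 18.5% of the list, below the same shares of all genes. Aligned array medians gave 2 higher and 8 lower, and 3 higher and 7 lower. The gene fip-1 fell 1.78-fold and 2.73-fold (adjusted p = 0.00272 and 7.6e-05). It entered this list by its symbol, beside fipp-1, and no source used here places it in 3′ end processing. The counts of lower genes in this list include fip-1. The polymerase subunit gene rpb-9 rose 1.53-fold and 1.5-fold, and the termination gene pcf-11 rose 1.37-fold and 1.85-fold. The poly(A) polymerase gene pap-1 and the polymerase subunit gene rpb-8 rose 1.6-fold and 1.54-fold against elo-5 C17ISO, and symk-1 fell 1.73-fold against N2 C13ISO. Of 11 tested epidermis markers on the same arrays, 7 fell against elo-5 C17ISO and 9 against N2 C13ISO, and 0 rose. These make 63.6% and 81.8%, beside 18.9% and 20.4% of all genes called lower. Their summed intensity was 5308 to 5834 in elo-5 C13ISO, 25415 to 25619 in elo-5 C17ISO and 24691 to 24802 in N2 C13ISO. Of 7 tested sperm markers 4 and 1 fell and 0 rose (57.1% and 14.3% called). Of 11 intestine markers 3 rose and 5 fell against elo-5 C17ISO, and 1 rose and 5 fell against N2 C13ISO (72.7% and 54.5%). Of 12 muscle markers 2 rose and 2 fell, and 3 rose and 3 fell (33.3% and 50%). Of 10 tested neuron markers 1 rose against elo-5 C17ISO and 2 against N2 C13ISO, with 0 lower (10% and 20%). These shares stand beside 46.2% and 45.2% of all genes. With array medians aligned 0 sperm markers rose and 4 fell in each comparison, and 1 intestine marker rose and 7 fell in each. The muscle markers gave 2 higher and 4 lower, and 2 higher and 3 lower. Of the neuron markers 0 rose and 4 and 0 fell. The part of tissue markers in the differences of these lists was not tested.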

How the data were processed

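The deposited intensities were computed by the authors with dChip, per the labels, and give each probe set a linear value on every array. No source used here states the dChip version, whether mismatch probes entered, or how arrays were normalized to each other. The 22548 probe sets were named through the platform annotation, in which 20766 carry 1 gene. All 42 splicing genes matched the WBcel235 gene table by Entrez ID and symbol. Values were transformed as log2(intensity + 16), and the 15783 probe sets with a mean log2 value above the 30th percentile were tested, among them all 42 genes. A single limma fit held all 6 arrays with 1 mean per group, without covariates (lmFit, then eBayes with an intensity trend). Residual degrees of freedom were 3 and prior ones 6.94, and the two-sided p-values received Benjamini-Hochberg adjustment. The script was tested on simulated data. Software was limma 3.58.1 in R 4.3.3, with Python 3.11.15, pandas 2.3.3 and matplotlib 3.10.9 for lists and figures.

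The number of arrays, 2 per group, limits the precision. The series design calls them biological replicates. The genes, the lists and the tests were chosen with earlier results of these data known. Genes were described singly if called in any comparison without overlap of the arrays, or if they were uaf-1, uaf-2, sfa-1, sftb-1 or snr genes; the rest were given by family, and other lists by the up to 4 largest called differences in each comparison. The gene hrpa-1 and the non-called prp, rsp and rnp genes given with values were chosen after their values were seen. Alternatives varied the offset, the filter, the scaling, the variance prior, the arrays in the fit and the probe set of a gene. No sequences were used here.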

Additional observations from a re-analysis of the deposited data

How the results depend on the processing

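Of the 19 calls of a single splicing gene, the rises of prp-18, prp-31 and rnp-7 against elo-5 C17ISO and the fall of rnp-9 against N2 C13ISO held under all 16 alternatives, and no call changed direction. Leaving out 1 array could not have changed a direction, because the groups compared were fully separated in every call. Called against elo-5 C17ISO were 31% of splicing genes under quantile normalization and 40.5% with array medians aligned, beside 47.5% and 49.4% of all genes. With the mean of all probe sets of a gene it was 31%, beside 47.2%. The count of 8 splicing genes called against elo-5 C17ISO became 13, 17 and 13 in these settings. With 1 array left out, where the lone array of a group is assumed to vary like the other groups, it ran from 5 to 15, the count of 11 against N2 C13ISO from 2 to 15, and the count between elo-5 C17ISO and N2 C13ISO stayed at 0. Over all genes, the counts with 1 array left out were 4312 to 5312, 3728 to 5398 and 19 to 393. The 182 genes called between elo-5 C17ISO and N2 C13ISO became 80 with no filter, 64 without an intensity trend and 415 in a fit of those 4 arrays alone. The median log2 difference of the splicing genes moved to -0.13, -0.092 and -0.02 with array medians aligned and to 0.125 against N2 C13ISO under quantile normalization. With 1 array left out it ran from -0.049 to 0.222, from -0.014 to 0.184 and from -0.096 to -0.027. The share of higher genes among all called against elo-5 C17ISO was 59% as deposited and 38% with array medians aligned, and 54.9% and 40.5% against N2 C13ISO. Between elo-5 C17ISO and N2 C13ISO it was 54.4% and 69.3%. Apart from the alignment of array medians and the arrays left out, whose construction shows what changed, the cause was not tested. Above the 50th percentile, 40 of the 42 genes were tested and 17.5% were called against elo-5 C17ISO, beside 48.7% of all genes. Same-numbered arrays did not deviate together (r = 0.001, 0.054 and 0.082 over 15783 probe sets). With a replicate block 9, 11 and 0 splicing genes were called. The dim gene rnp-8 had a log2 difference from elo-5 C17ISO of 1.05 with an offset of 1 and 0.50 with an offset of 64.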
